A study of Mus musculus with 22 samples.

Results

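The genes described here are 39 regulators of apoptosis, necroptosis and pyroptosis, listed by name for their known roles, with no measured value in the rule. Earlier results of these data were known when the genes were chosen. They are the survival and death members of the BCL-2 family, the caspases and Apaf1, the inhibitors of apoptosis, the death receptor and necroptosis genes, the proteins that leave the mitochondria, and p53 with Mdm2 and Cdkn1a. All 39 were found among the 53379 genes of the count table, and all 39 passed the filter on low counts that left 40714 genes for testing.

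Messenger RNA was sequenced from sorted nuclei of the left hippocampus of adult male C57/BL6N mice, bought at 8 weeks of age and used after 4 weeks of acclimatization. Mice of the kainate group (KL libraries) received kainate, an agonist of glutamate receptors that triggers status epilepticus, above the right hippocampus, while sham mice (SL libraries) received NaCl at the same place. All mice of both groups had medetomidine, ketamine, atipamezole and buprenorphine, and their hippocampi were taken at 24 hours. Kainate mice entered the study only if they had convulsive seizures, a selection that the sham mice did not pass through. The left hippocampus is contralateral to the injection (CLH), and the study treats it as tissue exposed to seizures in which the lesion of the injected side does not form. The deposited protocol speaks of right hippocampi, whereas the design text and the methods give the left ones. The 8 mice per treatment were pooled into 3 samples of 4 or 2 animals, and nuclei of each pool were sorted by NeuN, a nuclear protein of most neurons, into NeuN+ (neurons) and NeuN- (glia and other cells). This gave 3 kainate and 3 sham libraries of neurons, and 3 kainate and 2 sham libraries of glia. The study left out 1 sham glia sample because its preparation did not succeed, and sham glia replicate 2 has no values here. The bisulfite samples were not analysed here.

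Apoptosis of the intrinsic route is decided at the outer mitochondrial membrane. There, BH3-only proteins bind and block the survival proteins of the BCL-2 family, the pore formers Bax and Bak1 are freed, and cytochrome c leaves to assemble Apaf1 and caspase-9 into the apoptosome. The extrinsic route starts at death receptors such as Fas, where Fadd recruits caspase-8, which c-FLIP (Cflar) holds in check, and when caspase-8 is not active, Ripk1, Ripk3 and Mlkl can instead carry out necroptosis. In brain, seizures that injure neurons have long been linked to BH3-only proteins and to p53, while gasdermin D and the inflammatory caspases are best known from microglia.

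Total counts per library ranged from 12058875 to 45428465, and values are given below as CPM, counts scaled to a common library total by TMM, a normalization that equalizes the bulk of genes between libraries. For sham glia replicate 1 and kainate glia replicate 2, input RNA was about 0.05 ng and PCR ran for 15 cycles, whereas input was 1 ng and amplification 10 cycles for the remaining 9. The 8 neuronal markers were all higher in NeuN+ than in NeuN- nuclei, and the 7 astrocyte, 7 microglia, 7 oligodendrocyte and 5 oligodendrocyte precursor markers were all lower. The 5 endothelial markers summed to 17.3 to 33.3 CPM in NeuN- and 3.06 to 19.0 CPM in NeuN+ libraries. Summed oligodendrocyte markers differed greatly within the glia libraries, at 39579 and 8813 CPM in sham replicates 1 and 3 and at 27626, 11782 and 4913 CPM in kainate replicates 1 to 3. In such sorted bulk samples, fewer cells of a type and less RNA per cell cannot be told apart.

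Together, the 39 genes took 0.0803% to 0.0858% of all counts in sham neurons and 0.0955% to 0.108% in kainate neurons. In glia they took 0.145% and 0.144% of counts in the sham libraries and 0.197% to 0.234% in the kainate libraries. The kainate and sham ranges did not overlap in either cell type. Without Mcl1 the share was 0.0733% to 0.078% in sham and 0.0769% to 0.0856% in kainate neurons, which overlap. In glia the share without Mcl1 was 0.133% and 0.134% in sham and 0.167% to 0.199% in kainate libraries, without overlap.

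**Figure D1:**
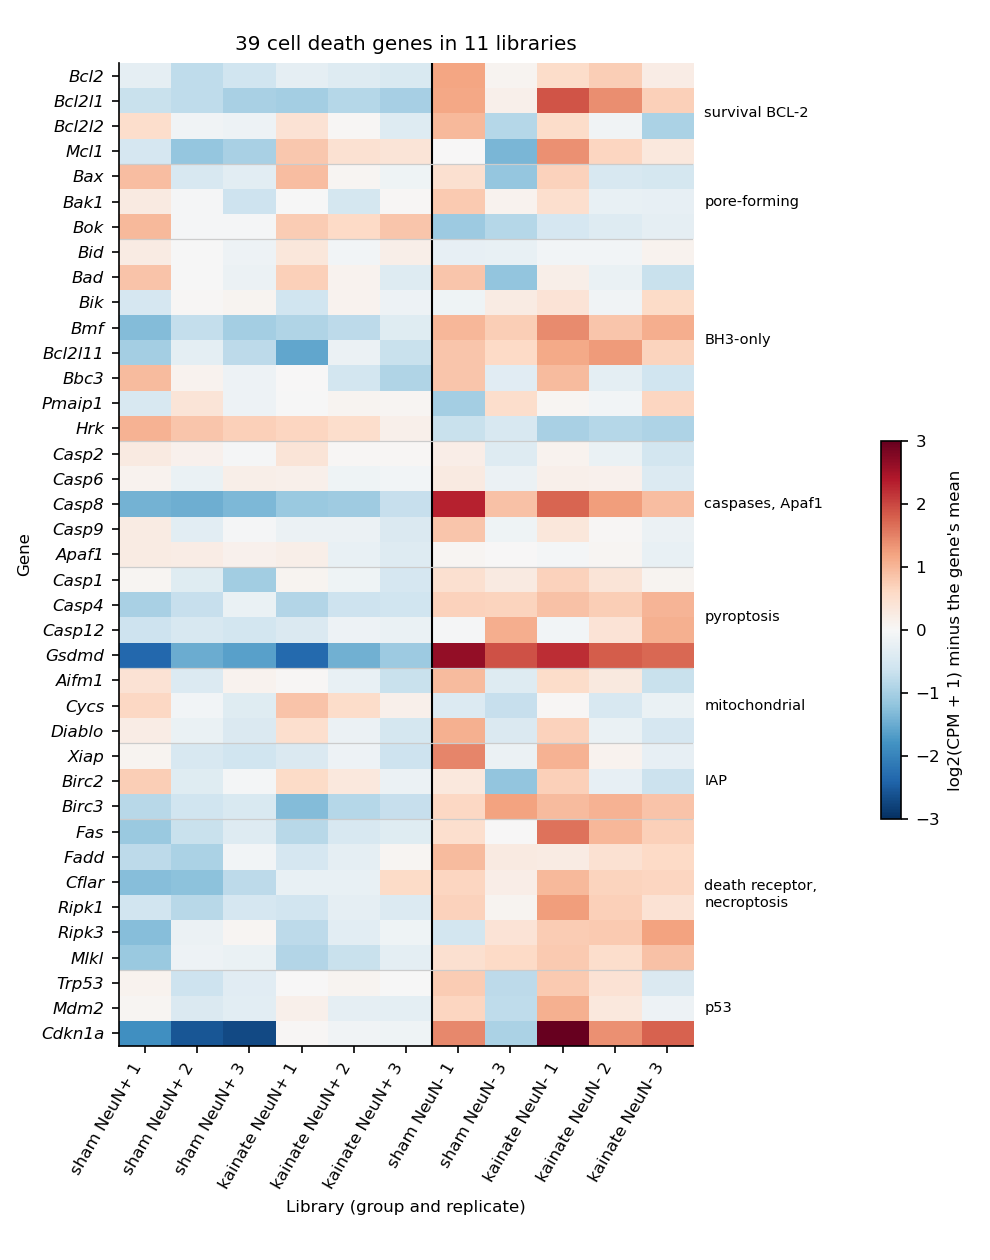
Each row is a gene, ordered by role, and each column is 1 of the 11 libraries. Colour gives log2(CPM + 1) minus the mean of that gene over all libraries, with red for higher and blue for lower, and the black line parts NeuN+ from NeuN- libraries. Gsdmd and Casp8 form the strongest contrast between the fractions, and Mcl1 and, apart from sham NeuN- replicate 1, Cdkn1a turn redder from sham to kainate within each. Values beyond 3 on either side are drawn at 3.

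Kainate was compared with sham in neurons to ask whether the cell death genes of the seizure-exposed CLH had moved at 24 hours. At a false discovery rate (FDR) below 0.25, the threshold of the study, edgeR called 0 of the 39 genes in neurons (0.165% of all genes were called). At an unadjusted p below 0.05 the same fit gave 4 genes (10.3% of the members against 2.09% of all genes), Cdkn1a, Cflar, Mcl1 and Casp8, all higher after kainate. Kainate and sham pools of the same replicate number deviated together. Taking the replicate number as a block leaves fewer degrees of freedom, so its FDRs rest more on the spread shared over genes. With this block edgeR called 5 of the 39 genes, which is 12.8% of the members against 5.09% of all genes. These were Cdkn1a, Mcl1, Cflar and Casp8, which rose (3.19% of all genes rose), and Bbc3, which fell (1.9% of all genes fell). DESeq2 called 3 of them, Cdkn1a, Cflar and Mcl1 (7.69% of the members against 1.66% of all genes). When neurons were fitted apart from glia, as the study's methods analyse them, edgeR called 2, Cdkn1a (FDR = 0.0184) and Mcl1 (FDR = 0.0356), while 1.29% of all genes were called. Of the 4 that rose, Mcl1 and Cflar encode inhibitors of apoptosis, Casp8 a protease of the extrinsic route and Cdkn1a a cell cycle inhibitor.

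In glia edgeR again called 0 of the 39 genes (0.101% of all genes), as did DESeq2 (1.43% of all genes) and the fit of glia alone (0% of all genes), and at an unadjusted p below 0.05 edgeR gave 2 genes, Mcl1 and Cdkn1a (5.13% of the members against 2.05% of all genes). With the block, which rests on the replicate pairs 1 and 3 because kainate glia replicate 2 has no sham partner, 4 genes rose and none fell (10.3% of the members, while 5.79% of all genes were called and 2.93% rose). These were Cdkn1a, Mcl1, Bcl2l1 and Ripk3. In the first pair the sham library had low RNA input and the kainate library did not. All 7 microglia, 7 oligodendrocyte, 5 precursor and 5 pericyte markers had negative log2 fold changes in kainate against sham glia, while 3 of the 7 astrocyte and 5 of the 8 neuronal markers had positive ones, with medians of -1.01 and 0.23. The part of cell composition in the results for glia was not tested.

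The effects went in both directions. In neurons, 22 of the 39 genes (56.4%) had a log2 fold change above 0 after kainate, compared with 48.6% of all genes, and the median was 0.09 against -0.01. In glia the count was also 22 of 39, compared with 51.9% of all genes, with a median of 0.12 against 0.02. Most effects were not resolved at this number of pools in the fit without the block. There the 95% interval of the log2 fold change held 0 for 35 genes in neurons and 37 in glia. It reached to a median of 0.99 on either side of the estimate in neurons and 1.10 in glia.

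**Figure D2:**
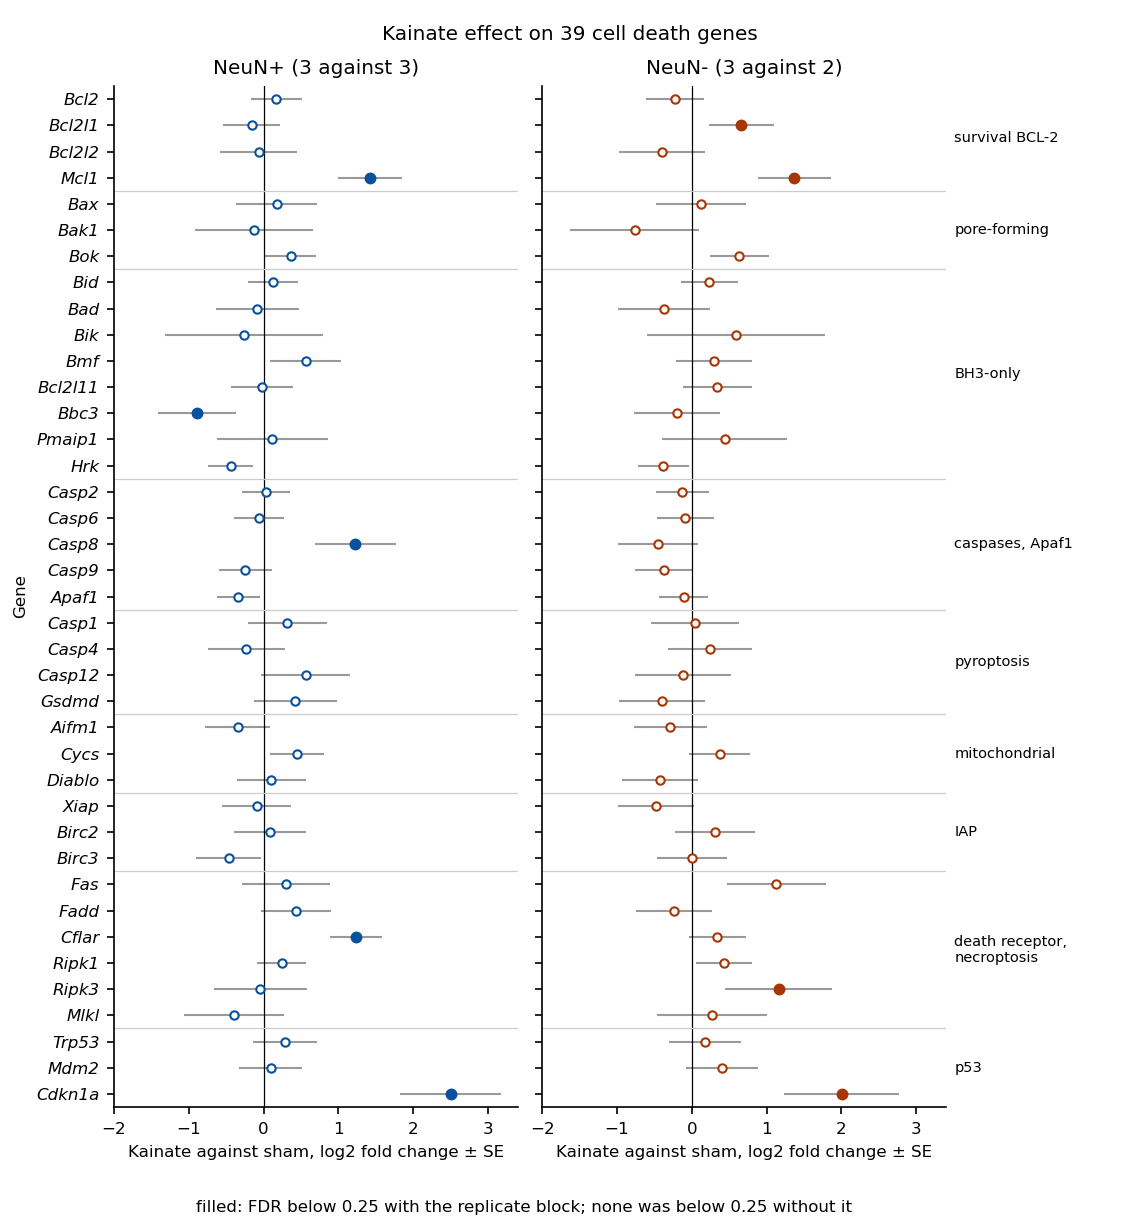
Points give the log2 fold change of kainate against sham for each gene in neurons (left) and glia (right), and bars give the standard error. Filled points passed FDR below 0.25 with the replicate block, and none passed without it. Mcl1 and Cdkn1a are filled on both sides, while Cflar, Casp8 and Bbc3 are filled for neurons and Bcl2l1 and Ripk3 for glia. None of the 39 differences between the cell types passed the test.

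Among the survival genes, Mcl1 was called with the block in both cell types and Bcl2l1 in glia. Mcl1 encodes a short-lived protein that holds Bak1 and BH3-only proteins and on which neurons depend under stress. In sham neurons it was at 111, 70.4 and 79.4 CPM in replicates 1 to 3, and in kainate neurons at 277, 215 and 208 CPM. In sham glia it was at 159 and 60.6 CPM (replicates 1 and 3), and in kainate glia at 407, 248 and 197 CPM (replicates 1 to 3). The lowest kainate library was above the highest sham library in both cell types. The log2 fold change was 1.43 (standard error 0.43, 95% interval 0.51 to 2.34, FDR = 0.828) in neurons and 1.37 (standard error 0.49, interval 0.32 to 2.42, FDR = 1) in glia. With the block it was 1.44 (FDR = 5.3e-08) in neurons and 1.53 (FDR = 2.4e-06) in glia, and the kainate library was higher in 3 of 3 and 2 of 2 pairs. In glia the value without the block moved with single libraries, to 2.26 without sham replicate 1, 0.83 without sham replicate 3 and 0.89 without kainate replicate 1. The difference between the cell types was 0.06 (interval -1.29 to 1.40).

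Bcl2l1, which encodes BCL-XL, the chief survival protein of mature neurons and of oligodendrocytes, was at 101, 96.1 and 82.4 CPM in sham and 79.8, 89.7 and 80.9 CPM in kainate neurons. In glia it was at 367 and 180 CPM in sham and 600, 430 and 266 CPM in kainate libraries, and both groups overlapped. The log2 fold change was -0.16 (standard error 0.38) in neurons and 0.66 (standard error 0.44, FDR = 1) in glia, where it rose with the block (0.64, FDR = 0.119). The value in glia was 1.29 without sham replicate 1, 0.23 without sham replicate 3 and 0.24 without kainate replicate 1. The difference of the effects, -0.82 (interval -2.07 to 0.42), did not pass the test, with an FDR of 1 and of 0.293 with the block, and it lay between -1.45 and -0.39 as these libraries were left out. Bcl2 and Bcl2l2, which encode BCL-2 and BCL-w, were within 0.17 and 0.07 of no change in neurons, and at -0.22 and -0.40 in glia.

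Of the pore formers, none was called. Bok, which encodes a BCL-2 protein abundant in brain whose role in neurons is less settled than that of Bax, was at 9.01 and 10.9 CPM in sham glia and at 14.2, 15.4 and 16.8 CPM in kainate glia, without overlap. Its log2 fold change was 0.64 (standard error 0.39, FDR = 1, FDR = 0.37 with the block) in glia, where it was 0.39 without kainate replicate 3, and 0.36 (standard error 0.34) in neurons, where sham libraries at 40.9, 19.98 and 19.95 CPM overlapped kainate libraries at 35.1, 31.3 and 37.2 CPM. Bax changed by 0.18 (interval -0.98 to 1.33) in neurons and 0.12 in glia, and Bak1, at most 2.36 CPM in any library, by -0.13 and -0.76.

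None of the BH3-only genes, which start the intrinsic route, was called as higher after kainate in the fit of all libraries or with the block. In neurons 3 of the 8 had a log2 fold change above 0 and in glia 5. Leaving out sham glia replicate 3, which leaves 1 sham glia library, made edgeR call Pmaip1 as higher in glia (2.94, FDR = 0.240). Bbc3, which encodes PUMA, a p53 target and one of the strongest inducers of neuronal apoptosis, was at 21.96, 11.7 and 9.70 CPM in sham neurons and at 10.96, 7.16 and 5.36 CPM in kainate neurons. These groups overlapped, but in each of the 3 pairs the kainate library was lower. The log2 fold change was -0.89 (standard error 0.52, interval -2.01 to 0.24, FDR = 1), and Bbc3 fell by 0.85 with the block (FDR = 0.0461). Without sham neurons replicate 1 the value was -0.46. In glia, Bbc3 was at 20.002 and 8.43 CPM in sham and 21.8, 8.69 and 6.83 CPM in kainate libraries, with a log2 fold change of -0.20. Hrk, which encodes Harakiri, a BH3-only protein made mainly in neurons that binds BCL-2 and BCL-XL, was at 26.8, 23.3 and 21.4 CPM in sham and 20.1, 18.5 and 14.1 CPM in kainate neurons. In glia it was at 7.48 and 8.68 CPM in sham and 5.90, 6.52 and 6.15 CPM in kainate libraries. In both cell types every kainate library lay below every sham library, and Hrk was the only member for which this held. The log2 fold changes of -0.44 (standard error 0.30) in neurons and -0.38 (standard error 0.34) in glia did not pass the test (FDR = 1 in both, and 0.607 and 0.797 with the block). Summed neuronal markers were at 592 to 898 CPM in NeuN- and 3618 to 8260 CPM in NeuN+ libraries. The part of neuronal RNA in the NeuN- values of Hrk was not tested.

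The other BH3-only genes gave smaller or unresolved values. Bcl2l11 (BIM) was at -0.02 in neurons (interval -0.91 to 0.87) and 0.34 in glia, Bmf at 0.56 and 0.30, Bid at 0.13 and 0.24, and Bad at -0.09 and -0.37. Pmaip1 (NOXA) was at 0.12 and 0.44, with counts between 4 and 106 per library. Bik had 0 to 45 counts per library, and no direction could be read for it. Other genes share 25.5% of the exon bases of Bak1, 20.5% of Bad, 17.7% of Bid, 13.3% of Bcl2l2 and 12.2% of Bax, and whether the counts were made by strand is not given in the sources used here.

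Among the caspases, Casp8 stood out in neurons. Caspase-8 is the initiator of the extrinsic route and the protease that keeps necroptosis in check. It was at 0.403, 0.345 and 0.451 CPM in sham neurons and at 0.711, 0.790 and 1.31 CPM in kainate neurons, so that the groups did not overlap although the counts behind them were few. In glia it was at 17.4 and 5.80 CPM in sham and 11.5, 7.87 and 6.07 CPM in kainate libraries. The log2 fold change was 1.22 (standard error 0.54, interval 0.07 to 2.38, FDR = 1, FDR = 0.129 with the block) in neurons and -0.46 (standard error 0.53, FDR = 1) in glia. The difference of the effects was 1.68 (interval 0.06 to 3.30, unadjusted p = 0.0434, FDR = 1) and was not called with the block either (FDR = 0.386). It was 0.65 without sham glia replicate 1 and 0.61 without both libraries of low input. Summed astrocyte markers were also higher in kainate neurons, at 282 to 434 CPM against 201.4 to 274 CPM in sham neurons, with Gfap, Aqp4 and Slc1a2 of the 7 markers not overlapping. The astrocyte markers did not move as one, since 4 of the 7 had a log2 fold change above 0 in neurons and Slc1a3, Gja1 and Aldoc did not, and the 5 other than Gfap and Slc1a2 summed to 58.5 to 116 CPM in kainate and 79.1 to 137 CPM in sham neurons. Summed microglia markers were at 68.5 to 74.4 CPM against 45.97 to 69.6 CPM. None of these markers was at 0 in any library, and the part of glial RNA in the values of Casp8, Cflar, Cdkn1a and Mcl1 in neurons was not tested.

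The genes of the apoptosome and of execution had small log2 fold changes, none of them called. Casp9 and Apaf1, which form the apoptosome, were at -0.24 and -0.34 in neurons and at -0.37 and -0.11 in glia. The initiator Casp2 and the executioner Casp6 were at 0.04 and -0.06 in neurons and at -0.13 and -0.09 in glia. Their standard errors were 0.29 to 0.39, among the smallest of the 39 genes, so that the 95% interval of Casp2 in neurons ran from -0.65 to 0.72 and that of Apaf1 from -0.97 to 0.29.

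Of the 4 genes of the inflammatory caspase and gasdermin D group, labelled pyroptosis in the figures, none was called under either fit. Casp1, the caspase of the inflammasome, was at 0.32 in neurons and 0.04 in glia, and Casp4, the mouse caspase-11 that senses bacterial lipopolysaccharide, at -0.23 and 0.25. Casp12 was at 0.56 and -0.12. In neurons its kainate libraries, at 1.07, 1.504 and 1.44 CPM, lay above its sham libraries at 0.806, 1.00 and 0.903 CPM. Gsdmd, which encodes the pore of pyroptosis, was at 0.42 in neurons and -0.40 in glia, with 43.6 and 25.8 CPM in sham and 32.3, 24.1 and 22.8 CPM in kainate glia.

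Proteins released from mitochondria and the inhibitors of apoptosis were likewise not called. Cycs, which encodes cytochrome c, was at 0.45 (standard error 0.36) in neurons and 0.37 (standard error 0.41) in glia and higher in the kainate library of all 3 and both pairs. With the block its FDR was 0.435 in neurons and 0.569 in glia. Diablo, an antagonist of the inhibitors of apoptosis of whose exon bases 40.9% are shared with other genes, was at 0.10 and -0.42, and Aifm1, a flavoprotein of mitochondria, at -0.35 and -0.29. The caspase inhibitor Xiap was at -0.09 and -0.48, and the ubiquitin ligases Birc2 and Birc3 at 0.08 and -0.47 in neurons and at 0.31 and 0.01 in glia.

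In the death receptor group, Cflar was called with the block in neurons and Ripk3 in glia. Cflar encodes c-FLIP, a caspase-8 relative without protease activity that blocks death receptor signalling. It was at 11.9, 12.2 and 17.1 CPM in sham neurons and at 25.8, 25.8 and 45.4 CPM in kainate neurons, without overlap. In glia it was at 47.7 and 34.8 CPM in sham and 60.3, 48.8 and 47.4 CPM in kainate libraries, with overlap. The log2 fold change was 1.23 (standard error 0.34, interval 0.50 to 1.97, FDR = 0.616) in neurons and 0.34 (standard error 0.38, interval -0.48 to 1.16, FDR = 1) in glia. Cflar rose in neurons with the block (1.20, FDR = 4.5e-05), in 3 of 3 pairs. Whether the effect differed between the cell types was not resolved, at a difference of 0.89 (interval -0.19 to 1.98, FDR = 1, FDR = 0.448 with the block) that was 0.57 without kainate neurons replicate 3.

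Ripk3, the kinase that phosphorylates Mlkl in necroptosis, was at 1.41 and 3.72 CPM in sham glia and at 5.02, 5.06 and 7.17 CPM in kainate glia, without overlap. Its log2 fold change in glia was 1.16 (standard error 0.72, FDR = 1), and it rose with the block (1.35, FDR = 0.129), in 2 of 2 pairs. Without the block the value was 0.65 without sham glia replicate 1, 2.02 without sham glia replicate 3, 0.73 without kainate glia replicate 3 and 0.73 without both libraries of low input. In neurons Ripk3 was at 0.470, 2.12 and 2.68 CPM in sham and 1.07, 1.83 and 2.25 CPM in kainate libraries, with a log2 fold change of -0.04. The difference between the cell types was -1.20 (interval -3.23 to 0.82, FDR = 1), and it was -0.70 without sham glia replicate 1, -0.78 without sham neurons replicate 3 and -2.06 without sham glia replicate 3. Fas, the receptor for Fas ligand and a p53 target, was at 3.13 and 1.93 CPM in sham glia and at 8.03, 4.85 and 3.77 CPM in kainate glia, again without overlap. Its log2 fold change of 1.13 (standard error 0.66) was not called (FDR = 1, FDR = 0.281 with the block), and in neurons it was 0.30. Without kainate glia replicate 1 the value in glia was 0.66. Ripk1 was at 0.24 in neurons and 0.43 in glia, the adaptor Fadd at 0.44 and -0.24, and Mlkl, the executor of necroptosis, at -0.39 and 0.27 with as few as 3 counts in a library.

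Counted over libraries that did not overlap, kainate lay above sham for Mcl1, Cdkn1a, Cflar, Casp8 and Casp12 and below it for Hrk in neurons, 15.4% of the members against 7.86% of all genes. In glia it lay above for Mcl1, Bok, Bid, Casp4, Fas and Ripk3 and below for Hrk, 17.9% of the members against 8.22% of all genes.

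Cdkn1a gave the largest log2 fold change of the 39 genes in both cell types. It encodes p21, an inhibitor of cyclin-dependent kinases that p53 induces and that protects cells from apoptosis in several settings. In sham neurons it was at 6.38, 3.47 and 3.03 CPM, and in kainate neurons at 25.9, 23.4 and 23.0 CPM, so the lowest kainate library lay far above the highest sham library. In glia it was at 70.7 and 12.6 CPM in sham and at 344, 67.4 and 89.2 CPM in kainate libraries, and there the groups overlapped through sham replicate 1. The log2 fold change was 2.50 (standard error 0.68, interval 1.04 to 3.96, FDR = 0.588) in neurons and 2.00 (standard error 0.77, interval 0.35 to 3.65, FDR = 1) in glia. With the block Cdkn1a rose by 2.57 (FDR = 4.8e-13) in neurons and by 2.55 (FDR = 1.1e-10) in glia. The kainate library exceeded its sham partner by 2.02, 2.75 and 2.92 on the log2 scale in the neuron pairs, and by 2.28 and 2.82 in the glia pairs. The value in glia without the block was 0.74 without kainate replicate 1, 1.23 without sham replicate 3, 3.76 without sham replicate 1 and 4.13 without both libraries of low input. In neurons Cdkn1a was also called by edgeR without kainate glia replicate 1 (FDR = 0.214), sham glia replicate 1 (FDR = 0.142) or sham glia replicate 3 (FDR = 0.146). Trp53 and Mdm2, which encode p53 and the ligase that degrades it, were at 0.29 and 0.09 in neurons and at 0.17 and 0.41 in glia and were not called.

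**Figure D3:**
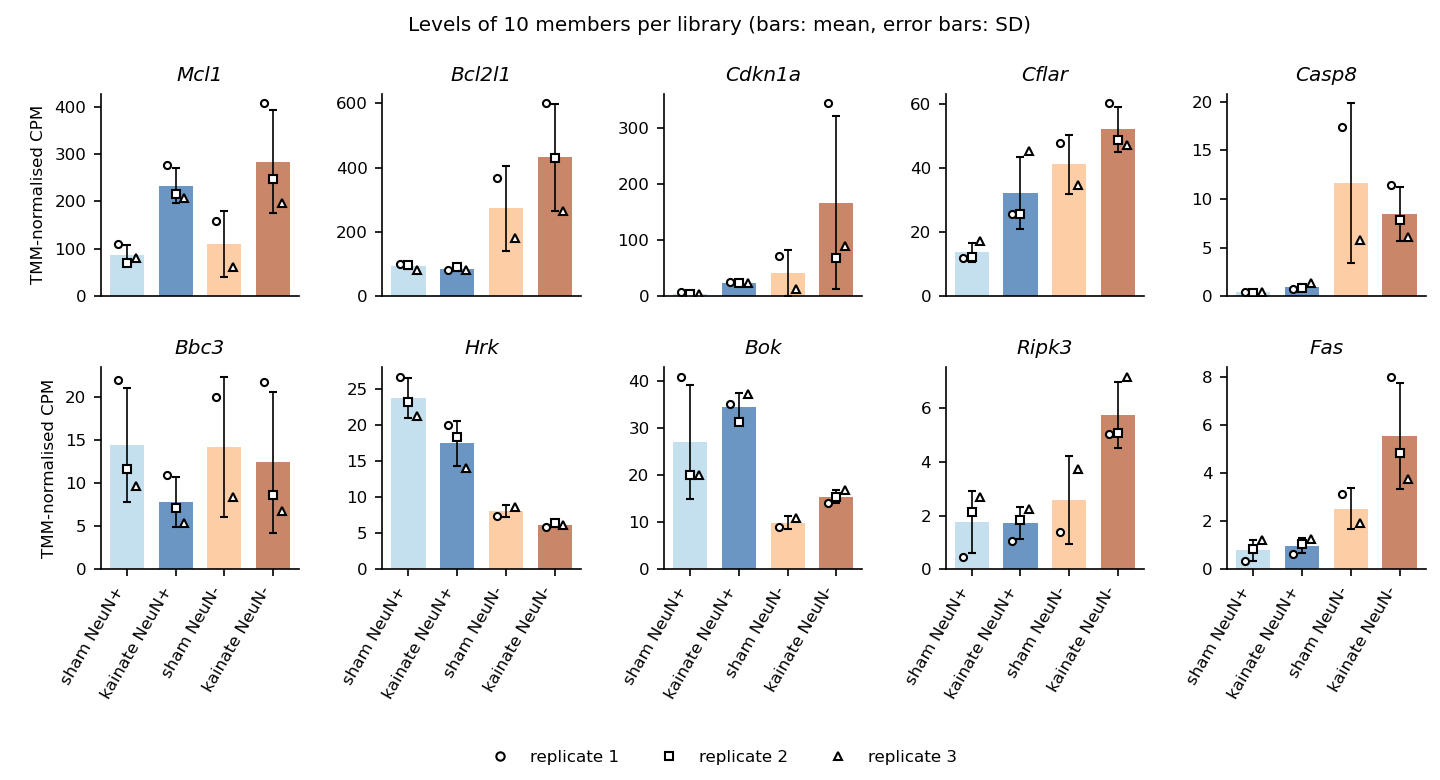
Bars give the mean CPM of each group, error bars the SD, and symbols the single libraries, with 1 shape per replicate number. For Mcl1 and Ripk3 the kainate symbols of NeuN- nuclei lie above the sham ones, for Cflar and Casp8 those of NeuN+ nuclei do, and for Hrk both lie below, while for Bbc3 the circle, square and triangle of NeuN+ nuclei each fall from sham to kainate.

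The sequence before the start of Mcl1, Cdkn1a and Cflar is shown because these 3 genes led the kainate comparison in neurons. RefSeq windows of GRCm38.p6 were matched for 36 of the 39 genes and not for Pmaip1, Bik and Gsdmd. Each line gives the 250 bases before an annotated start, 5′ to 3′ on the strand of the gene (all on the + strand), at chr3:95658471-95658720 for Mcl1, chr17:29090729-29090978 for the upstream of 2 starts of Cdkn1a and chr1:58711241-58711490 for Cflar. Capitals mark matches to the motifs searched.
Mcl1: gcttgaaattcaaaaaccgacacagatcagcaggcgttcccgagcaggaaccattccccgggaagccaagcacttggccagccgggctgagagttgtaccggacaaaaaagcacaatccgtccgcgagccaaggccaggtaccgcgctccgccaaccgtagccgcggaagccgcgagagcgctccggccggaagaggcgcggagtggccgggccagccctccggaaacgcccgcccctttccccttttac
Cdkn1a: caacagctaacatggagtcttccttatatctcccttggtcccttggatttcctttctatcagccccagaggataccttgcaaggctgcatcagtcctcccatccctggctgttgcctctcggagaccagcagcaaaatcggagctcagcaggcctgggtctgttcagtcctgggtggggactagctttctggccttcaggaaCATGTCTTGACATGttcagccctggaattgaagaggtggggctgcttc
Cflar: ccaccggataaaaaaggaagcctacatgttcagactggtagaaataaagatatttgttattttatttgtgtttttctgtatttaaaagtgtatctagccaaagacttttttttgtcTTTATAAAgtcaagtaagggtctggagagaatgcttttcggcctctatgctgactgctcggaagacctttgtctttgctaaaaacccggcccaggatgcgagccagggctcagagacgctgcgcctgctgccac
Both strands were searched for AP-1 (TGANTCA), CRE (TGACGTCA), STAT (TTCNNNGAA), the TATA box (TATAAA) and a pair of p53 cores (CATG, any 6 bases, CATG), the last of which was added after the Cdkn1a window had been read. The window of Cdkn1a held the p53 pair, which starts 48 bases before the start, and 0.49% of all 32851 windows of this length held it. Cdkn1a was the only one of the 36 matched members with it, and its second window, at chr17:29093519-29093768, held none of the motifs. Cflar held overlapping TATA box matches on both strands, 134 and 132 bases before the start, and Trp53 and Xiap were the other members with one, 6.0% of member windows against 12.4% of all windows. Mcl1 held none of the motifs. AP-1 was found for Fas alone (6.75% of all windows), CRE for Birc2 and Cycs (1.55%), and STAT for Casp12, Fas and Ripk1 (7.02%). A match is a match of letters and not a measured site.

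The kainate effect itself was compared between neurons and glia. edgeR called 0 of the 39 genes (0.00246% of all genes) and at an unadjusted p below 0.05 gave 1, Casp8 (0.909% of all genes). With the replicate block (1.94% of all genes), with the pool as a block (0.0221%) and in DESeq2 (0.174%) the count was also 0. The smallest unadjusted p after Casp8 belonged to Cflar (0.0981), Bcl2l1 (0.179), Ripk3 (0.223) and Gsdmd (0.322), for which the difference was 0.82 (interval -0.90 to 2.54). That of Gsdmd was 0.37 without sham glia replicate 1, and among the neuron libraries it came to 0.34 when kainate replicate 3 and to 0.47 when sham replicate 1 was left out.

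NeuN+ and NeuN- nuclei were then compared over both treatments, to ask in which nuclei these genes are expressed. Of the 39 genes 21 were called (53.8% of the members against 37.2% of all genes), 3 higher in NeuN+ nuclei (7.69% against 16.8% of all genes) and 18 lower (46.2% against 20.4% of all genes). The split of these calls depended on the fit. With the replicate block within each cell type, averaged over the replicate numbers and with their spread taken out of the error, 7 were higher (17.9% against 26.5% of all genes) and 24 lower (61.5% against 30.9%). With the pool as a block, the pairing of the 2 fractions of a pool, 7 were again higher (17.9% against 24.9%) and 19 lower (48.7% against 34.8%). Leaving out sham glia replicate 1 gave 8 higher (20.5% against 22.3%) and 17 lower (43.6% against 37.5%), and without sham glia replicate 1 and kainate glia replicate 2, those of low input, there were 6 higher (15.4% against 20%) and 16 lower (41.0% against 31.3%). The median log2 fold change was -0.75, while that of all genes was -0.47. For 13 genes each NeuN+ library lay below every NeuN- library and for 2, Hrk and Bok, above, which is 38.5% of the members against 15.2% of all genes.

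The genes with the widest gap to the neuron fraction were Gsdmd and Casp8. Gsdmd ranged from 0.403 to 2.39 CPM over the 6 NeuN+ libraries and from 22.8 to 43.6 CPM over the 5 NeuN- libraries, with a log2 fold change at -4.53 (standard error 0.44, FDR = 3.3e-05). Casp8 ranged from 0.345 to 1.31 CPM and from 5.80 to 17.4 CPM, which gave -4.01 on the log2 scale (standard error 0.40, FDR = 3.3e-05). Summed oligodendrocyte markers were at 212 to 478 CPM in NeuN+ and 4913 to 39579 CPM in NeuN- libraries, so glial RNA was also read at a low level in the neuron fraction. All 4 genes of the inflammatory caspase and gasdermin D group were lower in NeuN+ nuclei, with Casp4 at -2.10, Casp12 at -1.53 and Casp1 at -0.88. All 6 genes of the death receptor group were lower as well, from -2.05 for Fas and -1.86 for Mlkl to -1.13 for Ripk3. Single libraries decided the calls of Casp1, lost without sham neurons replicate 3 (-0.70, FDR = 0.266) or kainate neurons replicate 2 or 3 (-0.89 and -0.78, FDR = 0.2503 and 0.2507), and of Ripk3, lost without sham glia replicate 3 (-0.69, FDR = 0.435).

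Of the survival genes, Bcl2l1 and Bcl2 were lower in neurons. Bcl2l1 ranged from 79.8 to 101 CPM in NeuN+ and from 180 to 600 CPM in NeuN- libraries, which gave -1.96 on the log2 scale (standard error 0.29, FDR = 0.000247). Bcl2 was at -1.11 and Xiap at -1.03, whereas Mcl1 at -0.31 and Bcl2l2 at -0.05 were not called. Mcl1 was not called with either block (FDR = 0.309 within cell types and 0.561 by pool), but it was called as lower without kainate glia replicate 3 (-0.59, FDR = 0.144). Without sham glia replicate 1 Bcl2l2 was called as higher (0.63, FDR = 0.220) and the call of Xiap was lost (-0.46, FDR = 0.285). Birc3 was lower in neurons, at -2.20 (standard error 0.32, FDR = 0.000232), while Birc2, at 0.32 (standard error 0.36, FDR = 0.55), was not called in the fit of all libraries. It was called as higher with the block within cell types (0.49, FDR = 0.00750) and by pool (0.54, FDR = 0.0439), without sham glia replicate 1 (0.83, FDR = 0.116) and without both libraries of low input (0.76, FDR = 0.197). Cdkn1a was at -3.04 (standard error 0.50, FDR = 0.000568).

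The BH3-only genes were called in both directions. Hrk was at 14.1 to 26.8 CPM in NeuN+ and 5.90 to 8.68 CPM in NeuN- libraries, which at 1.53 on the log2 scale (standard error 0.24, FDR = 0.000386) was the highest value of the 39 genes. Bmf, a BH3-only protein that responds to loss of cell attachment, was at -2.45 (standard error 0.35, FDR = 0.000198), from 0.671 to 2.21 CPM in NeuN+ and from 5.85 to 10.0 CPM in NeuN- libraries, and Bcl2l11 was at -1.68 (FDR = 0.00136). Bid, Bad, Bbc3, Pmaip1 and Bik were not called in the fit of all libraries. Bik was called as lower with the block within cell types (-1.35, FDR = 0.120), on few counts, and not by pool (FDR = 0.252). Bad was called as higher with the block within cell types (0.41, FDR = 0.139), by pool (0.51, FDR = 0.126) and without sham glia replicate 1 (1.12, FDR = 0.0647). Pmaip1 was called as higher without sham glia replicate 3 (FDR = 0.249) and Bbc3 as lower without kainate glia replicate 3 (FDR = 0.241). Bok ranged from 19.95 to 40.9 CPM in NeuN+ and from 9.01 to 16.8 CPM in NeuN- libraries (1.30, standard error 0.27, FDR = 0.00307), and Cycs was at 0.74 (standard error 0.27, FDR = 0.0851).

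For most genes of the core of the intrinsic route, the call between the fractions depended on the fit. Bax at 0.33, Apaf1 at 0.05, Casp2 at 0.27, Casp6 at -0.02, Casp9 at -0.41, Aifm1 at -0.39, Diablo at -0.37 and Trp53 at -0.39 missed the threshold in the fit of all libraries, with 95% intervals that ran from -0.42 to 0.52 for Apaf1 and from -0.54 to 1.20 for Bax. Casp2 was at 33.2 to 44.8 CPM in NeuN+ and 23.0 to 39.4 CPM in NeuN- libraries, and Bid (0.25) overlapped in the same way. With the block within cell types Casp9 (-0.36, FDR = 0.114), Aifm1 (-0.35, FDR = 0.0872), Diablo (-0.22, FDR = 0.223), Trp53 (-0.30, FDR = 0.128) and Mdm2 (-0.33, FDR = 0.0514) were called as lower in NeuN+ nuclei. These 5 were also called as lower without sham glia replicate 3 or kainate glia replicate 3, with values from -0.77 to -0.61. With the pool as a block they were not called, while Bak1 was called as lower (-0.89, FDR = 0.159). Bax and Casp2 were called as higher with both blocks, at 0.49 and 0.29 within cell types (FDR = 0.00633 and 0.151) and at 0.53 and 0.29 by pool (FDR = 0.0265 and 0.187). Bax was also called without sham glia replicate 1 (0.89, FDR = 0.132), as was Casp2 (0.46, FDR = 0.207). Apaf1, Casp6 and Bid were not called under any setting tried.

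**Figure D4:**
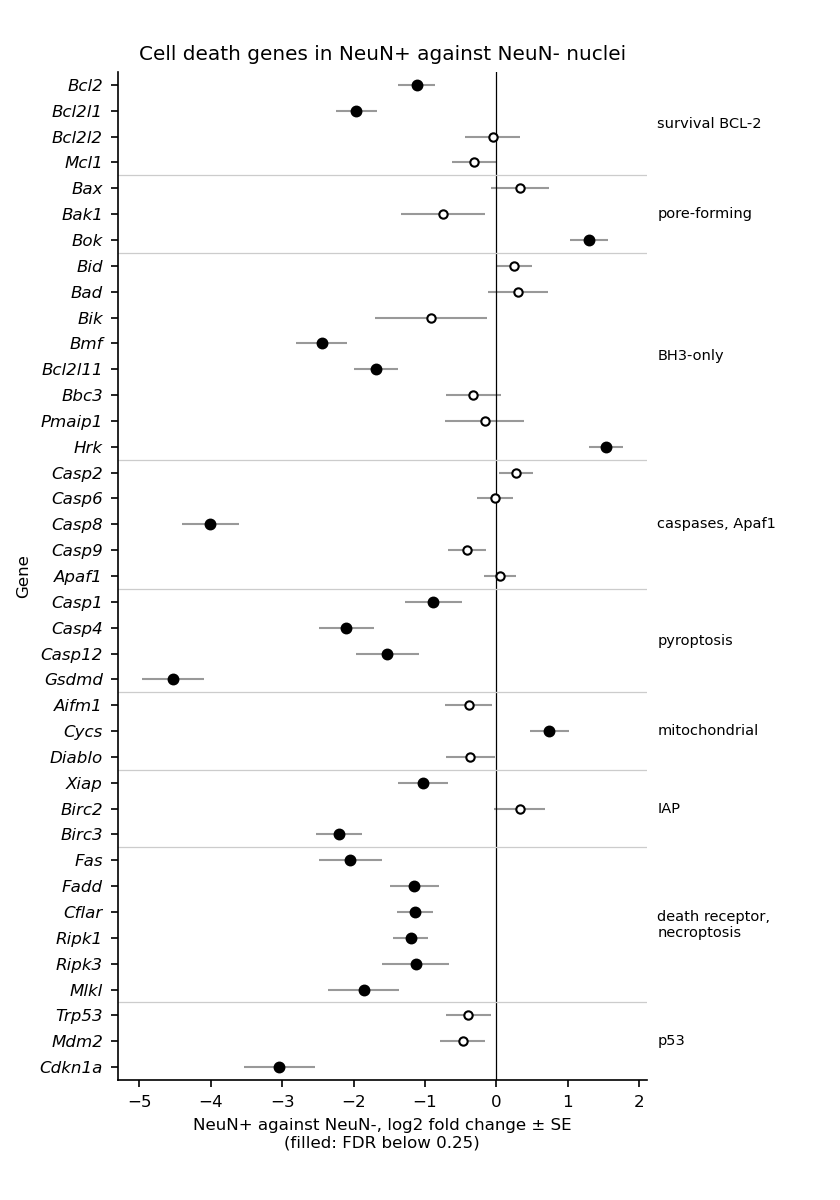
Points give the log2 fold change of NeuN+ against NeuN- nuclei over both treatments and bars the standard error, with filled points for FDR below 0.25. The 3 filled points right of 0 are Bok, Hrk and Cycs, and all points of the pyroptosis and death receptor groups lie left of 0.

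Per kilobase of exon, Bax, Mcl1 and Bcl2l1 were among the highest levels. In sham neurons the mean of Bax was 58.4 CPM per kilobase, followed by Mcl1 at 25.4, Mdm2 at 23.1, Birc2 at 22.7 and Bcl2l1 at 20.3. In kainate neurons the means of Mcl1 and Bax were 68.2 and 65.9 CPM per kilobase, and their order was not resolved. Bax was at 97.9, 52.99 and 46.8 CPM per kilobase in the kainate neuron libraries and at 97.9, 36.1 and 41.1 in the sham ones, so that it was above Mcl1 (80.9, 63.0 and 60.8) in kainate replicate 1 and below it in the others. In sham glia the means were 59.6 CPM per kilobase for Bcl2l1, 47.3 for Bax and 32.2 for Mcl1, and in kainate glia Bcl2l1 was at 94.2, Mcl1 at 83.1, Bax at 51.5 and Cdkn1a at 47.0. Cdkn1a had been at 11.7 CPM per kilobase in sham glia and at 1.21 in sham neurons. Its glia means covered widely spread libraries, at 70.7 and 12.6 CPM in sham and 344, 67.4 and 89.2 CPM in kainate glia. The lowest genes per kilobase in sham neurons were Casp8 at 0.138, Bmf at 0.205, Casp12 at 0.236 and Bik at 0.257. Neighbours in these orders were not tested against each other, and the length is that of all annotated exons of a gene.

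Several members are neighbours in the genome (GRCm38). Cflar (chr1:58711508-58758884) and Casp8 (chr1:58795374-58847503) lie 36489 bases apart on the + strand, and both rose in neurons with the block. In the contrast of the fractions Cflar was at -1.14 and Casp8 at -4.01. Casp1, Casp4 and Casp12 stand in a row on chromosome 9, with 1562 and 8646 bases between them, and all 3 were lower in NeuN+ nuclei. Birc2 and Birc3, 11634 bases apart on the same chromosome, are at 0.32 and -2.20 in that contrast.

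Beyond the 39 genes, a list of 75 further genes held other BCL-2 relatives, executioners and nucleases, death ligands and receptors, inflammasome genes and p53 targets. Grouped with the BCL-2 relatives were Bag1, Bag3 and Bcl3, which are not members of that family. The list was drawn up with earlier results of these data known, so its shares cannot test whether cell death genes moved more than others. In neurons edgeR called 0 of them, gave 2 at an unadjusted p below 0.05, both higher (2.67% of the list against 2.09% of all genes), and with the block 6 rose and 1 fell (9.33% against 5.09%). Bag3, a cochaperone that binds BCL-2 and guides damaged proteins to autophagy, was at 3.49, 3.85 and 3.58 CPM in sham and 18.5, 10.4 and 12.2 CPM in kainate neurons. Without the block its log2 fold change was 1.91 (standard error 0.45) and was not called by edgeR. With the block its FDR was 4.9e-07. In glia 0 were called, 6 passed an unadjusted p below 0.05, all higher (8.0% of the list against 2.05% of all genes), and with the block 8 rose and 3 fell (14.7% against 5.79%). Bcl3, a BCL-2 family name but a coactivator of NF-kappaB, was at 1.09 and 3.67 CPM in sham and 100, 72.2 and 46.3 CPM in kainate glia (4.92, standard error 1.12, FDR = 0.438). Tnf, the death ligand made by microglia, was at 0.831 and 0.793 CPM in sham and 8.65, 7.87 and 8.94 CPM in kainate glia (3.38, standard error 0.99, FDR = 1). Aen, a p53-induced nuclease, was at 12.3 and 15.4 CPM in sham and 34.3, 35.9 and 30.6 CPM in kainate glia (1.28, standard error 0.34, FDR = 0.823). All 3 rose with the block, which gave FDRs of 5.3e-13 for Bcl3, 7.5e-06 for Tnf and 0.00372 for Aen. In NeuN+ against NeuN- nuclei, 14 of the 75 genes were higher (18.7% against 16.8% of all genes) and 37 lower (49.3% against 20.4%), and all 9 inflammasome and pyroptosis genes of the list were among the lower.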

How the data were processed

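Nuclei were sorted by NeuN from pooled left hippocampi, and mRNA was amplified with SMART-Seq v4. According to the paper, mRNA libraries were sequenced on different instruments, with single or paired reads. The run of a library was not used in any fit, and its part in the differences between replicate numbers was not tested. According to the submitters' processing notes and the methods, the authors trimmed reads with Trim Galore 0.4.3, aligned them with Rsubread to mm10 and took the number of uniquely mapped reads of each gene from featureCounts with the GENCODE M16 annotation. The counts were deposited without normalization, for 53379 genes and 11 libraries, and whether counting used the strand is not given in the sources used here. Counting of unique reads can lower genes with near copies. The bisulfite samples (11) were not analysed here. Symbols were matched for 53274 genes, the other 105 were left out, and filterByExpr (minimum count 10, minimum total 15) kept 40714. Positions and exon overlaps are from GENCODE on GRCm38 (mm10).

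The counts were fitted by edgeR 4.0.16 (limma 3.58.1, R 4.3.3) with TMM scaling and a quasi-likelihood model (glmQLFit, legacy method) of the 4 group means in 11 libraries, with 7 residual and 6.76 prior degrees of freedom and a common coefficient of variation of 0.60. All p-values are two-sided and were adjusted by Benjamini-Hochberg over all genes tested, with FDR below 0.25 as the threshold. Standard errors and 95% intervals come from the same fit. The replicate block leaves fewer residual degrees of freedom than this fit. Its small FDRs therefore rest on few pairs and on the spread shared over genes. The fit was tested on simulated data. The study's methods analyse the cell types separately, which was run as an alternative.

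The members and lists were chosen with earlier results of these data known. All 39 members are accounted for. Full values were given to members called in a kainate comparison, to the 5 smallest p of each, to up to 8 called with the block and to the 6 smallest p per direction of the NeuN contrast, while Hrk, Cycs, Casp12 and the further cell death genes were picked for mention once their values had been seen. The same pool gave the NeuN+ and NeuN- library of a number, and deviations of such libraries from their group means correlated at 0.240 to 0.668. For kainate and sham libraries of the same number, taken from the labels, the correlation was 0.161 to 0.643 in the 3 neuron pairs and 0.760 and 0.787 in the 2 glia pairs, so the number was used as a block within each cell type (coded to sum to 0, so that the NeuN contrast averages over the numbers) and its value is given where it changes a call. No libraries were duplicates. Other choices tried were DESeq2 1.42.0, its size factors, other filters, gene sets and thresholds, neurons and glia fitted apart, the newer and robust methods of edgeR, low RNA input and leaving out each library. The number of pools limits the precision.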

Additional observations from a re-analysis of the deposited data

How the results depend on the processing

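The count of members called in neurons, 0 in the fit as reported, was 3 in DESeq2 (1.66% of all genes) and 2 in a separate fit per cell type (1.29%). It was 5 with the replicate block (5.09%) and 2 among genes with an NCBI gene ID, and it ranged from 0 to 1 with each library left out. For the gene ID set and the left-out libraries the share of all genes in neurons was not computed. The 1 was Cdkn1a, called without kainate glia replicate 1, sham glia replicate 1 or sham glia replicate 3. In glia the count of 0 became 4 with the replicate block and ranged from 0 to 1 with each library left out, the 1 being Pmaip1 without sham glia replicate 3, a setting that leaves 1 sham glia library taken to vary like the other groups. Apart from settings that left 1 sham glia library, the remaining ones kept a count of 0 in both. For the difference between the cell types it was 0 under all settings, the replicate block within each cell type and by pool included. For NeuN+ against NeuN- nuclei the count of 21 was 31 with the replicate block within cell types (7 higher and 24 lower) and 26 with the block by pool (7 higher and 19 lower). It was 25 with a filter of CPM of at least 1 in 3 libraries, 25 among genes with an NCBI gene ID and 17 at FDR below 0.05. With each library left out it ranged from 20 to 28, highest without kainate glia replicate 3. No share of all genes was computed for the filter, the gene ID set, FDR below 0.05 or the fit without kainate glia replicate 3. Without that library the log2 fold change of Casp2 in this contrast turned from 0.27 to -0.0071, with no call in either, and its highest value with a library left out was 0.46, without sham glia replicate 1, where it was called (FDR = 0.207 by edgeR). The cause of these changes was not tested. The replicate block changed no other call among the members the text names in the kainate comparisons. In the NeuN contrast, both blocks added Casp2, Bax, Birc2 and Bad, the block within cell types also Casp9, Diablo, Mdm2, Trp53, Bik and Aifm1, and the block by pool also Bak1. With 3 pools a group, or 2 for sham glia, the 95% interval without the block reached more than 1 on the log2 scale to either side for 18 members in neurons and for 26 in glia.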
